A study of Arabidopsis thaliana with 134 samples.

Results

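The B-box (BBX) genes BBX2 to BBX32 of Arabidopsis thaliana were followed in whole seedlings after extended light and in the dark. The family was taken by locus identifier and without CONSTANS (CO, also BBX1), which gave 31 of the 28775 genes in the table. All 31 identifiers were present in it, and all 31 were found in the RefSeq annotation of TAIR10.1. The seedlings belonged to 65 recombinant inbred lines (RILs), which are inbred offspring of a cross that each carry a fixed mosaic of both parental genomes, and to the parents of that cross, the natural accessions Tnz-1 and Ws-2. Every plant grew for 12 days at 22 °C on medium with 3% sucrose, as clusters of about 50 seeds, under short days with 8 h of light and 16 h of dark. The seeds had been stratified for 4 days. Seedlings were taken at zeitgeber time (ZT) 10 h, counted from lights-on. The extended-light plants had been left in the light for the 2 h since ZT 8 h, and the dark plants had passed those 2 h in the dark. There were 65 RIL libraries from extended light, 65 from the dark, and 1 library per parent and condition.

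The 2 conditions stood in separate cabinets, so light and cabinet as sources of a difference cannot be told apart. Within whole seedlings, fewer cells of a type and less RNA per cell cannot be told apart either. Expression is given as TPM, a transcript level scaled for gene length and to the same total in each library, and the read depth is unknown because TPM keeps no read total. The RIL libraries listed between 7999 and 10459 genes at 0 in extended light and between 8017 and 10268 in the dark. Of 4 shoot markers, 3 were above 0 in every RIL library, with a summed level of 25607 to 46500 TPM in extended light and 25518 to 38768 TPM in the dark. All 4 root markers were above 0 in every RIL library, summing to 34.3 to 288 TPM in extended light and 23.4 to 296.5 TPM in the dark. The 6 seed storage transcripts summed to 0.88 to 7818 TPM in extended light and 1.76 to 15267 TPM in the dark. In Tnz-1 they summed to 11228 TPM in the light library, above every light RIL library, and to 13308 TPM in the dark library, against 223.7 TPM in light and 373.2 TPM in the dark in Ws-2. The part of the marker levels in the results below was not tested.

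B-box proteins are transcriptional regulators with 1 or 2 zinc-binding B-box domains near the N-terminus, and many carry a CCT domain (named for CONSTANS, CO-like and TOC1) near the C-terminus. They are sorted by these domains into structural groups: I and II have paired B-boxes and a CCT domain, III a single B-box and a CCT domain, IV paired B-boxes without CCT, and V a single B-box without CCT. Several group IV proteins work with the bZIP factor HY5, which promotes light-grown development, and many family members are marked for destruction by the COP1/SPA ubiquitin ligase in the dark. Others act on flowering time through CO.

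The bases just before the gene start are shown for 4 members. BBX8 and BBX24 were taken because they carry a clock-related motif there. BBX4 has a motif to which HY5 and B-box proteins are known to bind and was listed at 0 in part of the lines. BBX20 had the largest light change among the tested members. Each is the 250 bases upstream of the annotated gene start, 5′ to 3′ on the gene's strand, from RefSeq's TAIR10.1 assembly. Capitals mark the evening element (AAAATATCT, or AGATATTTT on the other strand) and the T/G-box (CACGTT, or AACGTG on the other strand).
BBX24, chr1:1829984-1830233, reverse strand: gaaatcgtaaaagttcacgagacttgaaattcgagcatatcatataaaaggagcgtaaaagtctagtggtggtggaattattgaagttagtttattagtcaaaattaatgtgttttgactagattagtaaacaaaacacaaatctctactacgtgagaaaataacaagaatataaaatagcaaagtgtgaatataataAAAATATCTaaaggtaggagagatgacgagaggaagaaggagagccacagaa
BBX8, chr5:19563833-19564082, reverse strand: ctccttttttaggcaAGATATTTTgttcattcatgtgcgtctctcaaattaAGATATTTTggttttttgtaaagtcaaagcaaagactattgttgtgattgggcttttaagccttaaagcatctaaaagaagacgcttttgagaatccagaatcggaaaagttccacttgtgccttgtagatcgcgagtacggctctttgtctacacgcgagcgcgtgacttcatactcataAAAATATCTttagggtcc
BBX4, chr2:10566586-10566835, forward strand: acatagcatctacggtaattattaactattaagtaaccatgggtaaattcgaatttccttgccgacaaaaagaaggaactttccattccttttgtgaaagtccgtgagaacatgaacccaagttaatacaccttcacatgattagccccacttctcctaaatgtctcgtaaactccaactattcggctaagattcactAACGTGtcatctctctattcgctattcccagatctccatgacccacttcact
BBX20, chr4:18206685-18206934, reverse strand: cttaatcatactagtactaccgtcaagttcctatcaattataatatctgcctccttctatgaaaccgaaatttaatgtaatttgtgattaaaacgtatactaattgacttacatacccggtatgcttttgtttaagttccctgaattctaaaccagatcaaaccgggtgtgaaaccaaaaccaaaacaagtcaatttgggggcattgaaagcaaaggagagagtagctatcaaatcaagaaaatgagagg
BBX8 held 3 evening elements, BBX24 held 1 and BBX4 held 1 T/G-box, while BBX20 held neither of them, nor the G-box (CACGTG) or the CCA1-binding site (AAAAATCT, or AGATTTTT on the other strand), which were searched as well on both strands. None of the 4 motifs contains another. The evening element was found upstream of 3 of the 31 members (BBX3, BBX8 and BBX24), against 2.36% of 27443 windows of the same length before protein-coding genes. The T/G-box stood before 4 members against 7.54% of the windows, the G-box before 4 against 6.49%, and the CCA1-binding site before 3 against 6.69%. A match is a string of letters and not a shown binding site.

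To ask which B-box genes responded to the longer day, the extended-light RIL libraries were compared with the dark ones. The test took the 18111 genes that averaged at least 1 TPM across the 130 RIL libraries, among them 21 of the 31 members. Calls required an adjusted p below 0.05 (limma, Benjamini-Hochberg over all 18111 genes) and a change of 1 or more in either direction on the log2(TPM + 1) scale. That scale understates the change of low genes. Among the 21 members, 7 were called, against 5.48% of all tested genes. BBX2, BBX24 and BBX25 rose (2.66% of all tested genes), and BBX6, BBX14, BBX17 and BBX20 fell (2.83%). At the adjusted p alone 16 of 21 passed, against 61.6% of all tested genes, with 9 upward (36.1%) and 7 downward (25.5%). The median change was 0.05 log2 units over the 21 members and 0.05 over all tested genes. The direction was shared by at least 60 of 65 lines for 11 members, against 23.1% of all tested genes, and by every line for 5 members (BBX2, BBX14, BBX17, BBX20 and BBX24), against 7.63%.

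**Figure D1:**
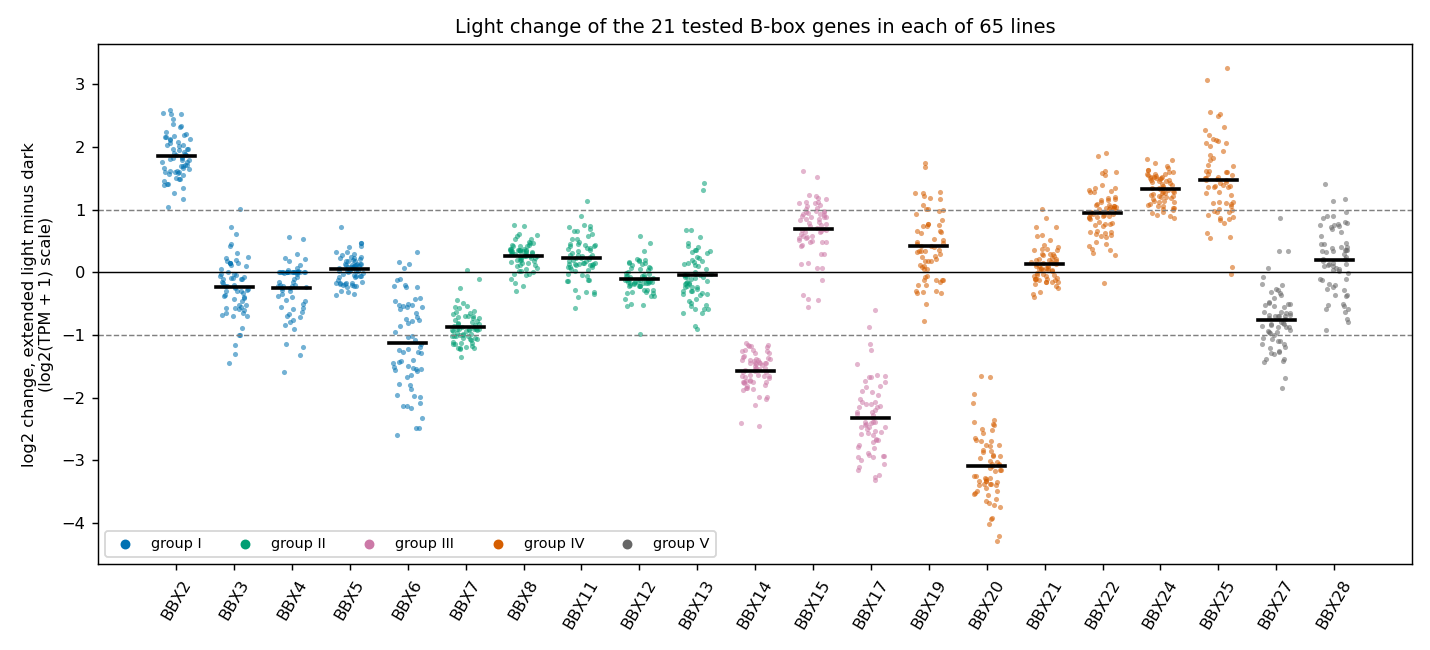
Change on the log2(TPM + 1) scale between the extended-light and the dark library of a line, for the 21 tested B-box genes; each point is 1 of 65 lines, black bars are means, colours are structural groups and dashed lines mark a change of 1 in either direction. BBX20 lies lowest, with a mean of -3.10, and BBX2 highest, with a mean of 1.86.

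Group IV held the largest change among the tested members. BBX20 (AT4G39070, also BZS1), known as a negative regulator of brassinosteroid signalling and a partner of HY5, had 3.04 to 11.9 TPM in extended light, with a median of 7.56, against 28.1 to 140.3 TPM in the dark, with a median of 71.6. The highest light library was below the lowest dark library, so the groups did not overlap. A lack of overlap with lower values in light was found for 0.657% of all tested genes. The log2 change was -3.10 (SE 0.0667, limma adjusted p 1.29e-79), and BBX20 was lower in extended light in 65 of 65 lines. It ranked at place 27 from the most negative change among the 18111 genes.

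BBX24 (AT1G06040, STO) and BBX25 (AT2G31380, STH), which both restrain light-grown development by interfering with HY5, went the other way. BBX24 had 98.5 to 257 TPM in extended light, with a median of 157, against 40.01 to 94.7 TPM in the dark, with a median of 60.7. Here the lowest light library was above the highest dark library, as was the case for 0.293% of all tested genes. Its log2 change was 1.33 (SE 0.0491, limma adjusted p 1.78e-53), upward in 65 of 65 lines. BBX25 is a low-abundance relative, with 3.36 to 20.6 TPM in extended light (median 9.99) against 0.51 to 6.75 TPM in the dark (median 2.91), and the groups overlapped. Its log2 change was 1.47 (SE 0.083, limma adjusted p 3.44e-35), upward in 64 of 65 lines, with line 50 the exception at -0.03.

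The other group IV members moved less. BBX22 (LZF1), which promotes anthocyanin and chlorophyll accumulation, had 26.02 to 87.0 TPM in extended light (median 48.4) against 17.2 to 34.9 TPM in the dark (median 23.6). Its log2 change of 0.95 (SE 0.0532, limma adjusted p 1.83e-35) passed the adjusted p and stood just under the threshold on the size of the change, and it was upward in 64 of 65 lines. BBX19, which delays flowering by binding CO, was low, with medians of 1.20 TPM in extended light and 0.65 TPM in the dark, and a log2 change of 0.42 (SE 0.0825, limma adjusted p 3.71e-06) in 49 of 65 lines. With a pseudocount of 0.1 in place of 1 the change was 0.88. BBX21, an activator of the HY5 gene, was abundant in both groups, with medians of 114.9 TPM in extended light and 108.2 TPM in the dark. Its log2 change of 0.13 did not pass (limma adjusted p 0.0758), but did with the line as a block in the model (adjusted p 0.000829).

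**Figure D2:**
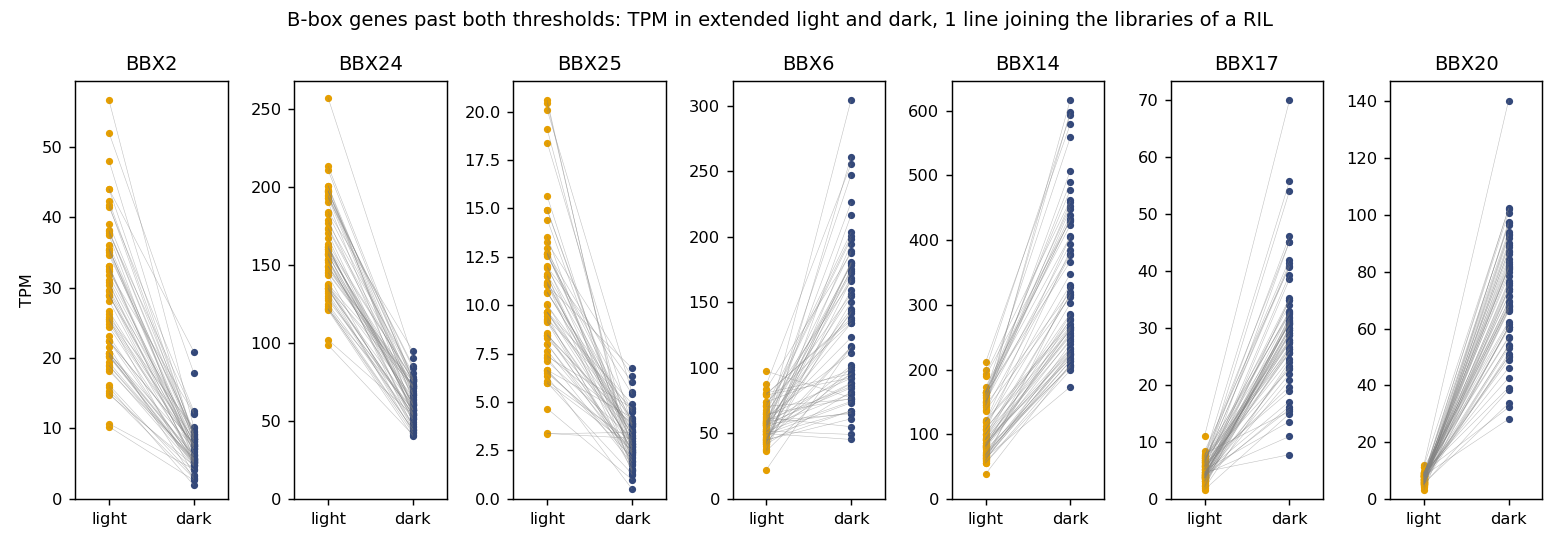
TPM (linear axes starting at 0, each with its own scale) of the 7 called B-box genes in the extended-light library, left, and the dark library, right, of 65 lines; each point is 1 library and a grey line joins the libraries of 1 line. BBX24 and BBX20 show no overlap between the conditions, and single grey lines of BBX6 and BBX25 run against the rest.

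In group III, which carries a single B-box, the members parted. BBX17 (AT1G49130, COL8), which restrains flowering through CO, had 1.65 to 11.1 TPM in extended light (median 4.72) against 7.76 to 69.9 TPM in the dark (median 29.6). Its log2 change was -2.33 (SE 0.0836, limma adjusted p 1.37e-54), downward in 65 of 65 lines, although the highest light libraries reached into the range of the dark ones. BBX14 (AT1G68520, COL6), linked to leaf senescence, had the highest mean TPM of all 31 members. It stood at 38.4 to 210.9 TPM in extended light (median 100.5) against 173.2 to 617.0 TPM in the dark (median 286.2). The groups overlapped, and the log2 change was -1.57 (SE 0.0914, limma adjusted p 5.94e-34), downward in 65 of 65 lines. BBX15 (COL16) rose instead, with medians of 63.5 TPM in extended light and 39.6 TPM in the dark and a log2 change of 0.69 (SE 0.0627, limma adjusted p 3.13e-19) in 60 of 65 lines.

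Group I holds the closest relatives of CO. BBX2 (AT5G15850, COL1), which shortens the circadian period when overexpressed, had 10.25 to 56.6 TPM in extended light (median 28.15) against 1.94 to 20.9 TPM in the dark (median 7.11). Its log2 change of 1.86 (SE 0.0891, limma adjusted p 1.11e-41) was the largest increase among the tested members. It was upward in 65 of 65 lines, with overlap between the groups. The annotation places a non-coding RNA gene, AT5G15845, across the whole of BBX2 on the other strand. Its medians were 1.04 TPM in extended light and 0.7 TPM in the dark, and whether the authors' counting used the strand is not given in the sources used here. BBX6 (AT5G57660, COL5), which can induce flowering in short days when overexpressed, had 22.4 to 97.35 TPM in extended light (median 56.2) against 45.3 to 304.6 TPM in the dark (median 134). The groups overlapped widely, and the log2 change was -1.12 (SE 0.0903, limma adjusted p 6.62e-23). It was downward in 61 of 65 lines, while lines 34, 40, 48 and 78 had changes of 0.07, 0.16, 0.13 and 0.33.

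The other group I genes did not pass the adjusted p. BBX5 (COL4), a flowering repressor and the member with the second highest light median after BBX24, had 149.5 TPM in extended light and 138 TPM in the dark (medians), with a log2 change of 0.05 (limma adjusted p 0.368). BBX3 (COL2) had medians of 6.17 TPM in extended light and 6.79 TPM in the dark. Its log2 change was -0.23 (limma adjusted p 0.0911), in 48 of 65 lines. BBX4 (COL3), which promotes responses to red light, had a log2 change of -0.25 over all 65 lines (limma adjusted p 0.596). In 19 of these lines it was at or near 0 in both conditions, and in the other 46 the mean change was -0.35 ± 0.46 (SD, no test, lines chosen by their values). With the line as a block, BBX3 and BBX4 passed over all 65 lines (limma adjusted p 0.000152 and 1.37e-05), which brought the members past the adjusted p to 19 of 21, against 76.8% of all tested genes.

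No gene of group II was called, and none of its tested members moved by 1 log2 unit. BBX7 (AT3G07650, COL9), which represses flowering upstream of CO, was the second most abundant member over all RIL libraries and had the largest change of the group. It stood at 78.9 to 150.6 TPM in extended light (median 122.6) against 97.7 to 287.4 TPM in the dark (median 233.3), a log2 change of -0.87 (SE 0.0438, limma adjusted p 8.69e-40) in 64 of 65 lines. BBX8, its closest relative, had medians of 63.99 TPM in extended light and 51.3 TPM in the dark. Its log2 change was 0.27 (SE 0.0338, limma adjusted p 5.04e-12), upward in 58 of 65 lines. BBX11, which promotes light-grown development, changed by 0.23 (adjusted p 2.10e-05, limma) in 52 lines and BBX12 by -0.11 (adjusted p 0.0468, limma) in 47 lines. BBX12 did not pass when the filter on low values was left out (limma adjusted p 0.0576). BBX13 changed by -0.05 and did not pass (adjusted p 0.893, limma).

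In group V, 2 of 7 members were tested. BBX27 had 11.5 to 71.4 TPM in extended light (median 31.2) against 28.9 to 79.9 TPM in the dark (median 55.1), and a log2 change of -0.76 (SE 0.0682, limma adjusted p 1.22e-19) in 61 of 65 lines. BBX28, which restrains HY5 activity, had medians of 1.57 TPM in extended light and 1.25 TPM in the dark and a log2 change of 0.20 (SE 0.0739, limma adjusted p 0.0156) in 44 lines, or 0.33 with a pseudocount of 0.1.

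The remaining 10 members, BBX9, BBX10, BBX16, BBX18, BBX23, BBX26, BBX29, BBX30, BBX31 and BBX32, had a mean below 1 TPM and were left out of the test. BBX18 (DBB1a), which promotes hypocotyl growth, was the highest of them, with 0 to 3.60 TPM in extended light (median 1.22) against 0 to 1.15 TPM in the dark (median 0.25). It was higher in extended light in 58 of 65 lines. BBX31 and BBX30 encode the microproteins miP1a and miP1b, which tie CO to the co-repressor TOPLESS and delay flowering when overexpressed. BBX31 was above 0 in 51 light libraries, reaching 3.58 TPM, against 18 dark libraries, reaching 1.64 TPM. BBX30 was above 0 in 18 light libraries, reaching 2.41 TPM, against 4 dark libraries, reaching 1.33 TPM. Both were listed at 0 in all 4 parental libraries. In the annotation BBX30 and BBX9 are direct neighbours facing each other with 284 bases between them, as are BBX10 and BBX31 with 486 bases between them. BBX9 was above 0 in 1 light and 1 dark RIL library, and BBX10 in 3 light and 2 dark ones. BBX16 had medians of 0.38 TPM in extended light and 0.25 TPM in the dark. BBX23, BBX26, BBX29 and BBX32 had a median listed at 0 in both groups.

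The tested members that are each other's closest relative by protein sequence were then compared for the size of their light change. Translated coding sequences of the annotation gave 12 such pairs, 7 of them with both genes tested. The difference between the changes was tested over 65 lines with a two-sided permutation test of 100000 sign flips, adjusted over the 7 pairs. Of these pairs, 5, BBX4 and BBX5 included, had a permutation p of 1e-05, the smallest value that 100000 sign flips allow (adjusted p 1.4e-05). Genes that are not closest relatives were not compared in this way, so the count is not read as a trait of relatives. Each difference follows from the light changes of the single genes given above. In 4 pairs the difference was above 1 log2 unit and had the same sign in 65 of 65 lines. For BBX20 minus BBX21, whose proteins were 49.6% identical, the difference was -3.22 (SE 0.0583). It was -2.26 (SE 0.056) for BBX14 minus BBX15, at 63.8% identity. It was 2.09 (SE 0.0781) for BBX2 minus BBX3, at 69.2% identity, and -1.14 (SE 0.0362) for BBX7 minus BBX8, at 72.3% identity. BBX4 minus BBX5 came to -0.30 over 65 lines, but nothing is read from its test, because BBX4 was at or near 0 in both conditions in 19 of them, where the difference holds the change of BBX5 with its sign turned. In the other 46 lines the difference had a mean of -0.39 ± 0.528 (SD) and was negative in 35, which is given without a test because these lines were chosen by their values.

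BBX24 and BBX25, with 72.7% identical proteins, rose together, and their changes differed by -0.14 (SE 0.0795, permutation p 0.0816, adjusted 0.0952), with BBX25 above BBX24 in 39 of 65 lines. With a pseudocount of 0.1 in place of 1 the difference was -0.41 (permutation test, adjusted p 0.000117). BBX12 minus BBX13 came to -0.06 (SE 0.0644, permutation p 0.363). A p that misses the threshold does not show that these pairs respond alike.

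Genes for partners and regulators of B-box proteins were counted in the same fit. Of 22 listed genes, 21 were tested, and FT had a mean below 1 TPM. At both thresholds 7 were higher and 1 was lower in extended light, and at the adjusted p alone 13 were higher and 6 lower. The shares over all tested genes were 2.66% higher and 2.83% lower at both thresholds, and 36.1% and 25.5% at the adjusted p. The median log2 change was 0.39 over the 21 partner genes and 0.05 over all tested genes. HY5 had a median of 24.96 TPM in extended light and 10.4 TPM in the dark, a log2 change of 1.27 (SE 0.239, limma adjusted p 1.46e-06) in 64 of 65 lines. Its homologue HYH had medians of 16.97 TPM in extended light and 4.36 TPM in the dark, and a log2 change of 1.83 (SE 0.0915, limma adjusted p 7.28e-40) in 65 lines. The COP1 partners SPA1, SPA3 and SPA4 were higher in every line. SPA1 had medians of 31.05 TPM in extended light and 9.94 TPM in the dark (log2 change 1.56, SE 0.0468, limma adjusted p 3.21e-63). SPA3 had medians of 36.2 TPM in extended light and 15.8 TPM in the dark (log2 change 1.15, SE 0.0596, limma adjusted p 1.53e-38). SPA4 had medians of 20.1 TPM in extended light and 6.42 TPM in the dark (log2 change 1.496, SE 0.053, limma adjusted p 3.28e-55). TZP, which acts in light-controlled growth and flowering, had medians of 8.57 TPM in extended light and 3.36 TPM in the dark, higher in 64 lines (log2 change 1.02, SE 0.157, limma adjusted p 6.34e-09). The phytochrome-interacting factor PIF3 was higher in all 65 lines, with medians of 53.96 TPM in extended light and 23.8 TPM in the dark (log2 change 1.18, SE 0.0471, limma adjusted p 9.09e-50). Its relative PIF4 was lower in all 65 lines, with medians of 22.4 TPM in extended light and 48.5 TPM in the dark (log2 change -1.06, SE 0.106, limma adjusted p 7.02e-17).

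To ask how far the lines differed for B-box genes irrespective of the light, the line was tested over the 130 RIL libraries with the treatment in the model. A line effect was found for 18 of 21 members (limma's moderated F-test at an adjusted p of 0.05), against 83.9% of all tested genes. With the range of line numbers as a term 15 passed, without BBX15, BBX22 and BBX28, and after median-of-ratios scaling 16, without BBX22 and BBX28. The intraclass correlation (ICC), the share of the variance that the light and dark library of a line have in common, had a median of 0.392 over the members and of 0.49 over all tested genes. An ICC above 0.8 was found for BBX4, BBX13 and BBX14, against 19.9% of all tested genes. No line effect was found for BBX6, BBX20 and BBX25, which were all called in the light comparison. Their ICC values were 0.0085, -0.0303 and 0.127 (limma's moderated F-test, adjusted p 0.4, 0.535 and 0.131). This does not show that the lines were alike for these genes. In this test a difference between lines in a single condition also adds to the error. BBX2, BBX14, BBX17 and BBX24 were called in both tests, with ICC values of 0.766, 0.855, 0.285 and 0.639.

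BBX4 and BBX13 had the highest ICC, and the parents were on opposite sides of the widest gap between lines for both genes. BBX4 was listed at 0 in the light library of Tnz-1 and at 0.23 TPM in its dark library, against 20.3 and 40.05 TPM in the light and dark library of Ws-2. Among the RILs, 19 lines were listed at 0 in extended light, and the same lines were at 0 to 0.11 TPM in the dark. The other 46 lines had 10.5 to 42.9 TPM in extended light and 8.71 to 65.4 TPM in the dark. No RIL library lay between these ranges, and 36 of the 46 lines were lower in extended light and 10 higher. In extended light 30 lines were above both parents, and in the dark 4. The ICC was 0.981 (limma adjusted p 4.99e-49). A level listed at 0 in this table does not show that the transcript was absent, because the read depth and the transcript set used for counting are not known here.

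BBX13 (COL15) showed the opposite order of the parents. It stood at 24.6 and 27.6 TPM in the light and dark library of Tnz-1, against 1.31 and 1.32 TPM in those of Ws-2. At the widest gap on the log2 scale, 29 lines had 6.02 to 25.4 TPM in extended light, and the other 36 had 0.33 to 4.12 TPM. In the dark 30 lines had 4.95 to 26.3 TPM and 35 had 0 to 2.48 TPM. Any set of values has a widest gap, and that of BBX13 in extended light, from 4.12 to 6.02 TPM, was narrow. It is not read as a split into separate classes of lines. Below both parents were 27 lines in extended light and 23 in the dark, and above both were 2 lines in extended light and 0 in the dark. In all, 64 of 65 lines were on the same side in both conditions, and the ICC was 0.96 (limma adjusted p 4.17e-38). BBX14 had the third highest ICC, 0.855 (limma adjusted p 1.07e-20). For this gene no gap was used to divide the lines. In extended light its lowest library, that of line 1 at 38.4 TPM, stood apart from the next, that of line 17 at 55.5 TPM. The parents were at 103.9 TPM (Tnz-1) and 61.7 TPM (Ws-2) in extended light. In the dark they were at 239.8 TPM (Tnz-1) and 213.4 TPM (Ws-2).

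**Figure D3:**
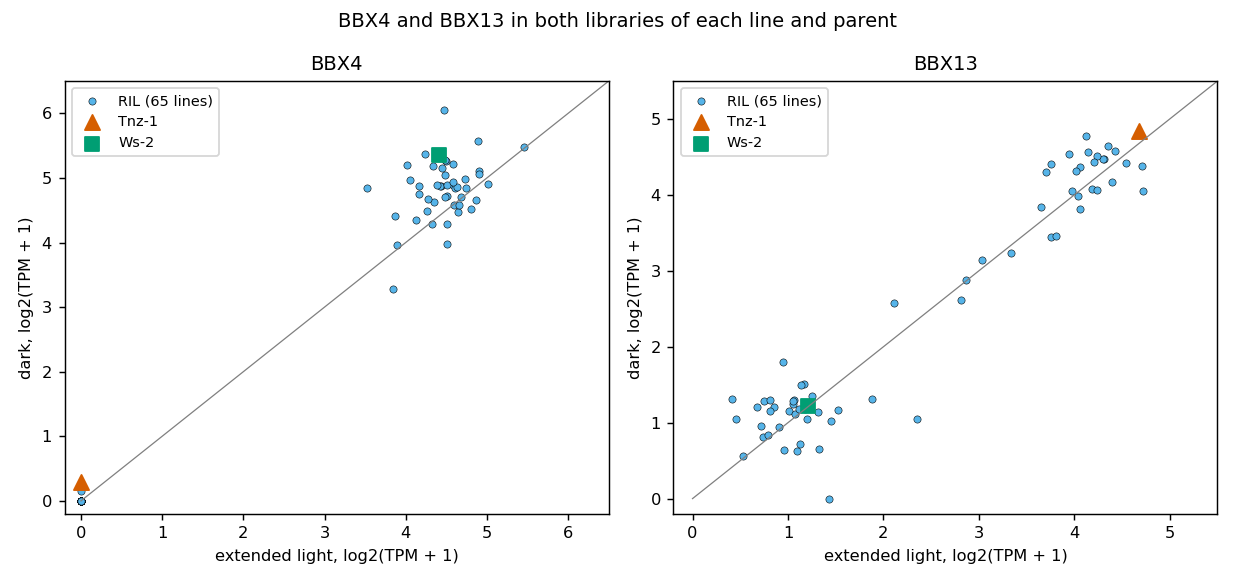
Level of BBX4 (left) and BBX13 (right) on the log2(TPM + 1) scale in the extended-light library (horizontal axis) and the dark library (vertical axis) of 65 lines and of both parents; the grey line marks equal levels. For BBX4, 19 lines lie at or near 0 beside Tnz-1 and 46 lines lie beside Ws-2. For BBX13 the widest gap lies in the lower middle and is narrow in extended light. Below both parents lie 27 lines in extended light and 23 in the dark.

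The distance of the lines from the group median was also compared between the conditions. It holds the variation between single libraries as well as that between lines. The absolute deviation differed for 2 of 21 members (limma, adjusted p under 0.05), against 1.79% of all tested genes. With the line as a block 3 members passed, BBX4 being added to BBX6 and BBX22. BBX6 varied less after the longer day, with a mean absolute deviation of 0.264 log2 units in extended light and 0.55 in the dark (difference -0.29, SE 0.0527, limma adjusted p 0.000302). BBX22 varied more, with 0.293 log2 units in extended light and 0.169 in the dark (difference 0.12, SE 0.0332, limma adjusted p 0.0206). The BBX4 difference was -0.15 (limma adjusted p 0.98, and 0.0223 with the block). In the lines where BBX4 was at or near 0, its deviation is close to the group median itself. Nothing about variation between lines is therefore read from the BBX4 test. The BBX22 difference did not pass after median-of-ratios scaling (0.07, limma adjusted p 0.255), where BBX7 did (-0.12, limma adjusted p 0.0369), or when deviations were taken within ranges of line numbers (0.05, limma adjusted p 0.639).

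The size of the light change also varied between ranges of line numbers. The labels name no batch, so the line numbers were cut into 4 ranges, with 17 lines from 1 to 19 and 16 each from 21 to 39, 40 to 57 and 58 to 78. Of the members called over all lines, BBX2, BBX14, BBX17, BBX20, BBX24 and BBX25 kept the call in each range on its own. The share of all tested genes called in every range is not given here, so no trait of the family is read from this. BBX6 changed by -1.49, -1.33, -0.73 and -0.93 log2 units from the lowest to the highest range, and in the last 2 it fell under the threshold on size. BBX20 changed by -3.47, -3.24, -2.59 and -3.07 log2 units. BBX27 changed by -1.06, -0.85, -0.24 and -0.86, and BBX15 by 1.04, 0.82, 0.22 and 0.63. The range 40 to 57 held the smallest change for these 4 genes, and also for BBX7 (-0.62) and BBX17 (-2.03). The change of BBX14 was -1.68 there, its most negative value. BBX22 and BBX24 had their largest changes in lines 58 to 78, at 1.31 and 1.52. The differences between ranges were not tested.

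**Figure D4:**
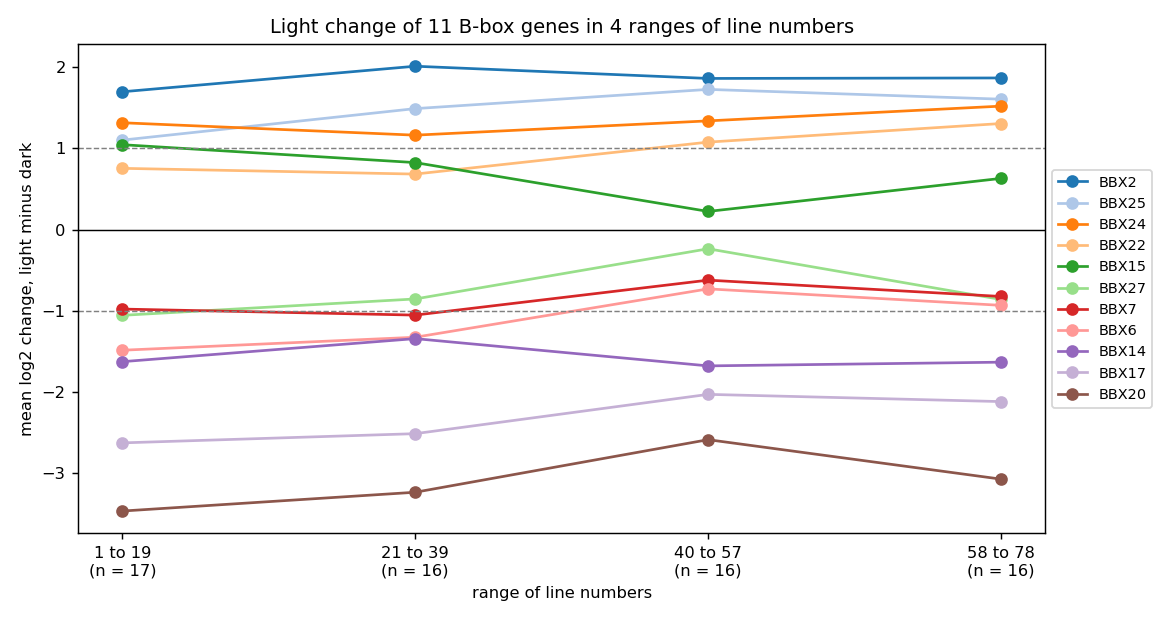
Mean change on the log2(TPM + 1) scale, extended light minus dark, of 11 B-box genes (vertical axis) in 4 ranges of line numbers (horizontal axis, with the number of lines); lines join the values of a gene and dashed lines mark a change of 1 in either direction. BBX6, BBX7, BBX15, BBX17, BBX20 and BBX27 are closest to 0 in lines 40 to 57, whereas BBX2, BBX14, BBX22, BBX24 and BBX25 are not.

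The parents were described without a test, because each parent had 1 library per condition. The part of the high seed storage transcripts of the Tnz-1 libraries, given above, in these values was not tested. For BBX2, BBX24 and BBX25, the genes called higher in the RILs, the light change of Tnz-1 was larger than that of Ws-2. BBX24 stood at 207.8 TPM in the light and 44.3 TPM in the dark library of Tnz-1, against 161.8 and 46.3 TPM in the light and dark library of Ws-2, which gave log2 changes of 2.20 and 1.78. BBX25 stood at 10.4 TPM in the light and 0.49 TPM in the dark library of Tnz-1, against 8.05 and 2.48 TPM in those of Ws-2, with log2 changes of 2.94 and 1.38. BBX2 changed by 2.60 in Tnz-1 and 1.84 in Ws-2.

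Of the genes called lower in the RILs, BBX14, BBX17 and BBX20 changed less in Tnz-1 than in Ws-2. BBX20 stood at 3.77 TPM in the light and 19.8 TPM in the dark library of Tnz-1, against 4.33 and 37.2 TPM in those of Ws-2, with log2 changes of -2.13 and -2.84. BBX17 changed by -1.22 in Tnz-1 and -2.24 in Ws-2, and BBX14 by -1.20 and -1.77. BBX6 went opposite ways: it stood at 61.5 TPM in the light and 29.1 TPM in the dark library of Tnz-1, a log2 change of 1.05, against 29.4 and 68.3 TPM in those of Ws-2, a log2 change of -1.19. In all, 5 of 21 members changed in opposite directions in the parents, against 34.2% of all tested genes.

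The dark library of Tnz-1 stood below all 65 dark RIL libraries for 6 of 21 members, BBX6, BBX7, BBX17, BBX20, BBX25 and BBX27, against 4.69% of all tested genes. BBX7 was at 80.0 TPM there and 97.7 TPM in the lowest dark RIL library, and BBX27 at 18.8 and 28.9 TPM. BBX17 and BBX25 were close to the lowest RIL, with 7.51 against 7.76 TPM and 0.49 against 0.51 TPM. Of these 6 genes all but BBX25 were lower in extended light than in the dark over the RILs. A single one of the 21 tested members, BBX13, was above all dark RIL libraries in that library, against 13.4% of all tested genes. Among the 21 tested members, Tnz-1 was outside the RIL range in extended light for BBX22 alone. It was at 88.8 TPM against a highest RIL value of 87.0 TPM, while 9.61% of all tested genes were outside. The Ws-2 libraries were within the RIL range for all 21 members in both conditions, against 1% of all tested genes outside it in extended light and 1.48% in the dark.

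**Figure D5:**
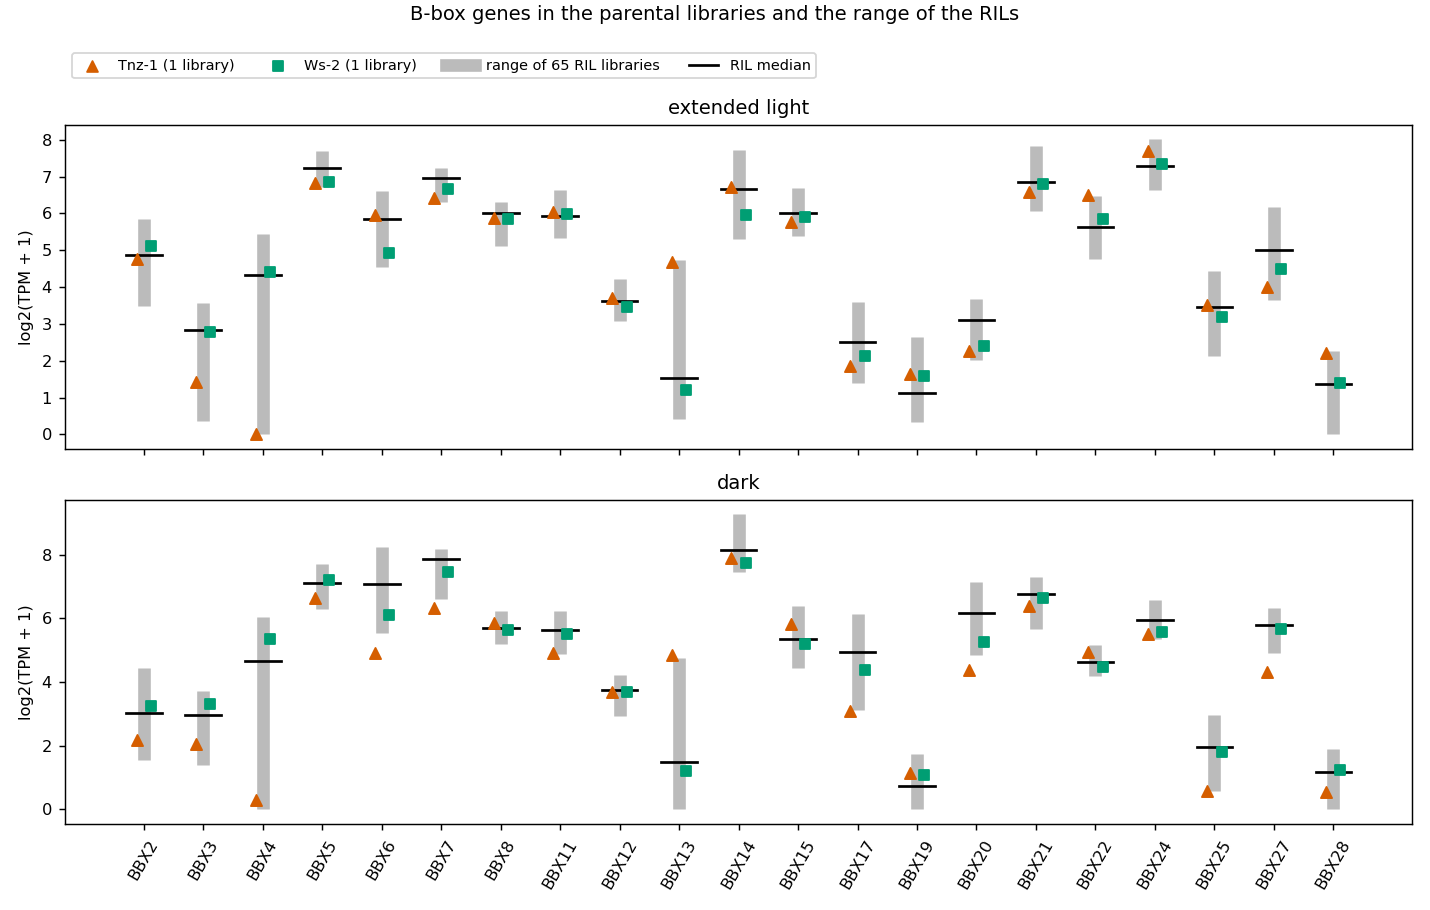
Levels on the log2(TPM + 1) scale of the 21 tested B-box genes in extended light (top) and in the dark (bottom); triangles are the library of Tnz-1, squares that of Ws-2, grey bars the range of 65 RIL libraries and black bars their median. In the dark, the triangles of BBX6, BBX7, BBX20 and BBX27 lie clearly under the grey bars.

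Between the parents, 3 of 21 members differed by 1 log2 unit or more in the same direction in light and in dark, against 21.9% of all tested genes. BBX13 was higher in Tnz-1, by 3.47 log2 units in extended light and 3.62 in the dark. BBX4 was lower in Tnz-1, with differences of -4.41 in extended light and -5.06 in the dark. BBX3 was lower in Tnz-1 as well, at 1.71 TPM in extended light and 3.19 TPM in the dark in Tnz-1, against 5.94 and 8.83 TPM in Ws-2. In the RILs BBX3 had an ICC of 0.791 (limma adjusted p 8.72e-16), with 8 lines below and 35 above both parents in extended light, and 11 below and 13 above in the dark. BBX32, which was listed at 0 in 62 light and 65 dark RIL libraries, stood at 1.78 TPM in the light and 0.17 TPM in the dark library of Tnz-1 and at 0 in both libraries of Ws-2.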

How the data were processed

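RNA was measured in 134 libraries of whole seedlings. Per the labels' protocols, directional poly(A) libraries were made from kit-isolated RNA. The authors deposited TPM values with 2 decimals, 1 row per locus. The submitters' processing notes name cutadapt 3.4, Salmon 1.6.0, GATK and the build TAIR10, without the role of each, and the transcript set and the use of strand are not given in the sources used here. How the parents' sequence variants were handled could change the TPM of single genes.

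From the deposited TPM, log2(TPM + 1) was fitted over all genes with a mean of at least 1 TPM in limma 3.58.1 (R 4.3.3, lmFit and eBayes with a trend, Benjamini-Hochberg adjustment), for the light response, the line effect (moderated F-test) and the absolute deviation from the group median. For the light response, the deviation and the permutation test, p-values measure the spread between lines, each with 1 library per condition. The F-test of the line sets differences between lines against what the light and dark library of a line do not share. The main fits of the light response and of the deviation did not pair the libraries by line. Their SEs and p-values thus also hold differences between lines that both conditions share. Pairing entered with the line as a block and in the permutation test. Each fit was first tested on simulated data. The line numbers pair the libraries, since a number is one RIL in the labels. Deviations from the group means correlated over genes with r from 0.492 to 0.886 within a line (median 0.772). Between different lines r ran from -0.526 to 0.843 (median -0.0208), so the 2 ranges overlapped. No 2 libraries held identical values.

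Closest relatives were found by global alignment of translated coding sequences (Biopython 1.88, identity over the shorter protein), and upstream windows were read from RefSeq's TAIR10.1 genome with its own annotation. In that annotation 12 members share bases with another gene, 10 of them with one on the other strand. Full values are given for the members called in the light comparison, the 3 with the highest ICC and members whose spread differed; called partner genes are given with medians and the test. The members, lists and tests were chosen with earlier results of these data known. The alternatives were a pseudocount of 0.1, no filter or one at 5 TPM, median-of-ratios scaling, the line as a block, ranges of line numbers and a change of at least 0.5, and, added after seeing the data, leaving out line 48.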

Additional observations from a re-analysis of the deposited data

Results flagged for a closer look

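The parents changed in opposite directions for 5 of the 21 tested B-box genes, against 34.2% of all tested genes, so the count is not read as a trait of the family. Each parent had 1 library per condition, so these differences were not tested. For BBX6 the log2 change in extended light was 1.05 in Tnz-1 and -1.19 in Ws-2, a difference of 2.24. For BBX7 it was 0.09 in Tnz-1 and -0.80 in Ws-2, a difference of 0.89. For BBX15 it was -0.06 in Tnz-1 and 0.69 in Ws-2, a difference of -0.75. For BBX5 it was 0.19 in Tnz-1 and -0.35 in Ws-2, a difference of 0.54. For BBX12 it was 0.02 in Tnz-1 and -0.22 in Ws-2, a difference of 0.25. In the dark library of Tnz-1, BBX6 and BBX7 were below all 65 dark RIL libraries.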

How the results depend on the processing

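Over 412 recomputed values, the direction changed for 3, all of genes near 0: BBX5 in lines 21 to 39 alone (-0.0559) and in lines 58 to 78 alone (-0.0648), and BBX13 in lines 58 to 78 alone (0.0107); the cause was not tested. With the line as a replicate block, 3 members were called higher and 4 lower, as without it, and 19 in place of 16 passed the adjusted p. Among the partner genes 7 were called higher and 1 lower with the block too, and 20 in place of 19 passed the adjusted p; the block changed no other call of the light response. For the spread, 3 members passed with the block in place of 2, with BBX4 added, from which nothing is read for the reason given above. At an absolute change of at least 0.5, 5 members were called higher in place of 3, and 6 lower in place of 4. Shares over all tested genes at the alternative settings, here and above, are not given except for the light response with the block. The counts are read only as how the calls of single members moved. The spread differed for 4 members in place of 2 without the filter on low values, which tested more genes, and for 1 with deviations taken within ranges of line numbers. With a pseudocount of 0.1 the changes of BBX24 and BBX25 differed by -0.41 (permutation test, adjusted p 0.000117). The line effect of BBX15, BBX22 and BBX28 did not pass with the range of line numbers as a term (limma adjusted p 0.19, 0.348 and 0.0809). That of BBX22 and BBX28 did not pass after median-of-ratios scaling (0.0902 and 0.0651) either, nor BBX22 without the filter (0.0547) or BBX28 at a pseudocount of 0.1 (0.075). Without line 48, 3 members were called higher and 4 lower. Median-of-ratios scaling moved the median change of all genes to 0.02, from 0.05. Depth is unknown, so the 10 members under the filter, mostly listed at 0, cannot be called absent.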

Other observations

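Single lines held the highest or lowest value for several B-box genes. In line 48, BBX27 was at 71.4 TPM in extended light, the highest of the 65 light libraries, against 38.7 TPM in the dark, a log2 change of 0.87 where 61 lines were lower in extended light. The same line had the lowest dark level of BBX6 (45.3 TPM) and of BBX20 (28.1 TPM) and the highest dark level of BBX4 (65.4 TPM) among the RILs. The log2 change of BBX20 was closest to 0 in line 48, at -1.66, and farthest from it in line 1, at -4.28. The next lines were near these values, with -1.67 in line 40 and -4.21 in line 23. Line 1 also had the lowest light level of BBX6 (22.4 TPM) and of BBX14 (38.4 TPM). These lines were picked after their values were seen, and no test was made of them.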
